A study of Homo sapiens with 6 samples.

Results

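DLK1 and 9 other imprinted genes (MEG3, H19, PEG3, PEG10, MEST, NNAT, CDKN1C, NDN and PLAGL1) were followed through 6 Illumina bead arrays, of which 3 carried RNA from control neural cells and 3 from cells like those of the isthmic organizer (IsO). They are 10 of the 34692 rows of the deposited intensity table, each found by its gene name. The set was chosen by a reading of the IsO and control intensities of these arrays, so that those values are part of its choice. Its differences between the groups are therefore given as a description, without a test. All cells came from H9, an established human embryonic stem cell line. Aggregates of both groups had 5 µM dorsomorphin and 10 µM SB431542, inhibitors of BMP and activin receptors, over the first 4 days, and were plated on day 4 for another 5 days. IsO-like cells were also given FGF8 at 100 ng/ml and CHIR99021, which inhibits GSK3 and so activates Wnt signalling. The labels state CHIR99021 only as 0 to 1.2 µM and do not give the concentration of the arrayed cells. The model rests on 1 cell line, and the labels do not say whether the samples of a group were separate cultures. The p-values of the main IsO comparison reflect the scatter among 3 samples a group, moderated by limma over the tested rows. Some of the scatter behind these and all other p-values may be technical.

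Imprinted genes are transcribed mainly from the copy inherited from 1 parent, because DNA methylation laid down in the germ line marks control regions on only 1 of the parental copies. They lie in clusters in which a non-coding RNA is often made from the allele that does not make the neighbouring protein. Many act in growth and in the developing brain. DLK1, MEG3, RTL1 and DIO3 form such a cluster: DLK1, RTL1 and DIO3 are made from the paternal copy and MEG3 from the maternal copy. The arrays measured total RNA and did not separate the alleles, so imprinting itself was not measured. In bulk RNA, fewer cells that express a gene and less RNA per cell cannot be told apart.

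The label of the treated group was compared with genes of the midbrain-hindbrain boundary. Of 6 such genes, 4 were tested. EN1, EN2 and WNT1 rose (adjusted p = 0.00103, 0.00317 and 0.00374, limma with Benjamini-Hochberg adjustment), and the other tested gene did not reach an adjusted p below 0.05. PAX5 was above background on no array and PAX2 on 1 IsO array. Median intensities were 144 to 157, and 13999 to 15232 rows were detected per array. The arrays numbered 1 stood apart from those numbered 2 and 3 in both groups: 45.8% of the 14548 tested rows differed between them (6669 rows, adjusted p below 0.05, limma with the group as a term). Values without both arrays numbered 1 are therefore given beside the differences they touch. A row was tested when 3 or more arrays gave it a detection p-value under 0.05. For the IsO comparison, 190 of them (1.31%) had an adjusted p below 0.05 and are termed called.

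DLK1 encodes a membrane protein with EGF-like repeats that is related to Notch ligands and is best known for holding precursor cells undifferentiated. Its raw intensity was 35273, 43113 and 44143 on control arrays 1, 2 and 3, and 2910, 6275 and 7375 on IsO arrays 1, 2 and 3. Every IsO array lay far below every control array, and IsO array 1 was the lowest. On the normalised log2 scale the level was 15.34 ± 0.13 (SD, n = 3) in control cells and 12.23 ± 0.81 (SD, n = 3) in IsO-like cells. The difference was -3.11 ± 0.40 (SE), or 8.61-fold lower in IsO-like cells. It was -3.89 between the arrays numbered 1, -2.68 between those numbered 2 and -2.74 between those numbered 3, and -2.71 over the arrays numbered 2 and 3 alone. The gene was detected on all 6 arrays and had the 24th lowest of the 14548 differences.

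MEG3 is the long non-coding RNA made from the other parental copy of the DLK1 cluster. Its row averaged several probes and read 179, 241 and 252 on control arrays 1, 2 and 3, and 130, 141 and 175 on IsO arrays 1, 2 and 3. All IsO values were below all control values, but only by a narrow margin over background. The signal was above background on 3 control arrays and on 1 IsO array, and the deposited detection p-value was below 0.05 on 1 array of each group, so the row was not among those tested. Its normalised log2 level was 6.86 ± 0.53 (SD, n = 3) in control cells and 5.50 ± 0.38 (SD, n = 3) in IsO-like cells, a difference of -1.37 that includes values at background. It shrank to -0.65 when no background was corrected and to -0.05 with the background from all rows.

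The promoter of MEG3 is shown because it is the partner of DLK1 and its RNA also read lower on the IsO arrays, and the promoter of H19 because its RNA was higher. RefSeq promoter windows of 300 bases on GRCh38.p14, from 250 before to 50 after a transcript start, were available for 5 of the 10 genes. Capitals mark CpG dinucleotides, the bases that carry DNA methylation. The MEG3 window is chr14:100825858-100826157 on the plus strand and the H19 window is chr11:2001217-2001516 on the minus strand, both printed 5′ to 3′ on the strand of the gene.
MEG3 promoter: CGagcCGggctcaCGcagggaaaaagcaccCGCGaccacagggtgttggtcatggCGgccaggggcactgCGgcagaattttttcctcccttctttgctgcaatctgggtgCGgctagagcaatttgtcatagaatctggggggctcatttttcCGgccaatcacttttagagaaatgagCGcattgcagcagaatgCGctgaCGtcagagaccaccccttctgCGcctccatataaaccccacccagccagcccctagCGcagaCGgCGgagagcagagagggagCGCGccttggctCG
H19 promoter: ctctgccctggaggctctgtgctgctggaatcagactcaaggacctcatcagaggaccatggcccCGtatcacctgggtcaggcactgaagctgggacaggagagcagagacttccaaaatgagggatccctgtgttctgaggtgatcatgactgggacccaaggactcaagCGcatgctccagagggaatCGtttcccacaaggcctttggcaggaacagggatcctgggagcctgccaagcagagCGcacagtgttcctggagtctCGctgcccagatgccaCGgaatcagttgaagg
The MEG3 window shown held 19 CpG and the H19 window 6, against a median of 14 over all 35114 windows. Windows at other MEG3 transcript starts held 17 and 18. Which start these cells used was not measured, so a window shown need not be the promoter in use. The hexamer TGCCGC, whose methylated form is the core of the ZFP57 motif, was searched on both strands. It occurred 1 time in the MEG3 window, was not found in the H19 window, and was present in 16.74% of all windows. Methylation was not measured, and a match is a description of the letters only.

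The other genes on either side of DLK1 were not among the 10 and could be tested. Of 19 other protein-coding genes within 10 places on each side in RefSeq order, counting genes with a row on the array, 13 were tested, 1 was called lower and 0 higher, where 1.31% of all tested rows were called, with a median difference of -0.13 on the log2 scale. The 1 called was BEGAIN, whose row was tested only through the control group, in which it is high, so the count is a description. The window was widened to 10 after the nearest 3 genes had been seen.

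BEGAIN, the gene directly before DLK1, encodes a protein associated with a synaptic guanylate kinase. Its intensity was 287, 376 and 459 on control arrays 1, 2 and 3, and 137, 150 and 150 on IsO arrays 1, 2 and 3. The groups did not overlap, and BEGAIN was not well above background on any IsO array, so the row was tested only through the control group, in which it is high. The level in IsO-like cells was lower by a factor of at least 4.92, from 8.05 ± 0.50 to 5.43 ± 0.16 (SD, n = 3, log2), with an adjusted p of 0.0124 (limma, Benjamini-Hochberg). A bound of this kind sets the bright group against the higher of each dim array's own value and the lowest detected signal of a 1-probe row. The call was lost without control array 2 (adjusted p = 0.0811), control array 3 (0.0523), IsO array 2 (0.0882) or IsO array 3 (0.0633). The difference was -1.40 when background was left uncorrected. It was -0.16 when all rows set the background, and the call was then also lost.

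DIO3, at the far end of the cluster, encodes the deiodinase that inactivates thyroid hormone. Its intensity was 462, 563 and 572 on control arrays 1, 2 and 3, and 208, 189 and 284 on IsO arrays 1, 2 and 3. All IsO arrays were lower, a difference of -2.01 ± 0.35 (SE, log2), but it missed the threshold (adjusted p = 0.0564, limma). It passed under 6 of 16 alternatives, among them the replicate number as a block (adjusted p = 0.0175), median scaling (0.0271) and no background correction (0.0445). The difference was -1.29 when background was left uncorrected and -0.21 when all rows set the background. RTL1, between MEG3 and DIO3 in this order, encodes a retrotransposon-derived protein and was above background on no array. MEG8, a further maternal non-coding RNA of the cluster, differed by 0.04 ± 0.24 (SE, log2, adjusted p = 0.994).

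Beyond BEGAIN on that side of DLK1, WDR25 differed by -0.52 (adjusted p = 0.470), SLC25A29 by -0.84 (adjusted p = 0.720) and YY1, a zinc-finger regulator, by -0.41 (adjusted p = 0.461), none of them called. With the replicate block, SLC25A29 passed (adjusted p = 0.0289). Together with BEGAIN and DIO3, 3 of the 13 tested neighbours were then called lower, where 5.78% of all tested rows were called (841 rows). BEGAIN again counts here only through the control group. Of 39 rows for microRNAs, small nucleolar RNAs and other non-coding RNAs at imprinted loci, 4 were above background on any array, all of them SNORD113 or SNORD114 genes of the DLK1 cluster. SNORD114-2 differed by 0.01 (adjusted p = 0.999) and SNORD114-7 by -0.02 (adjusted p = 0.998). The plot of differences in gene order shows the low values at BEGAIN, DLK1, MEG3 and DIO3.

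**Figure D1:**
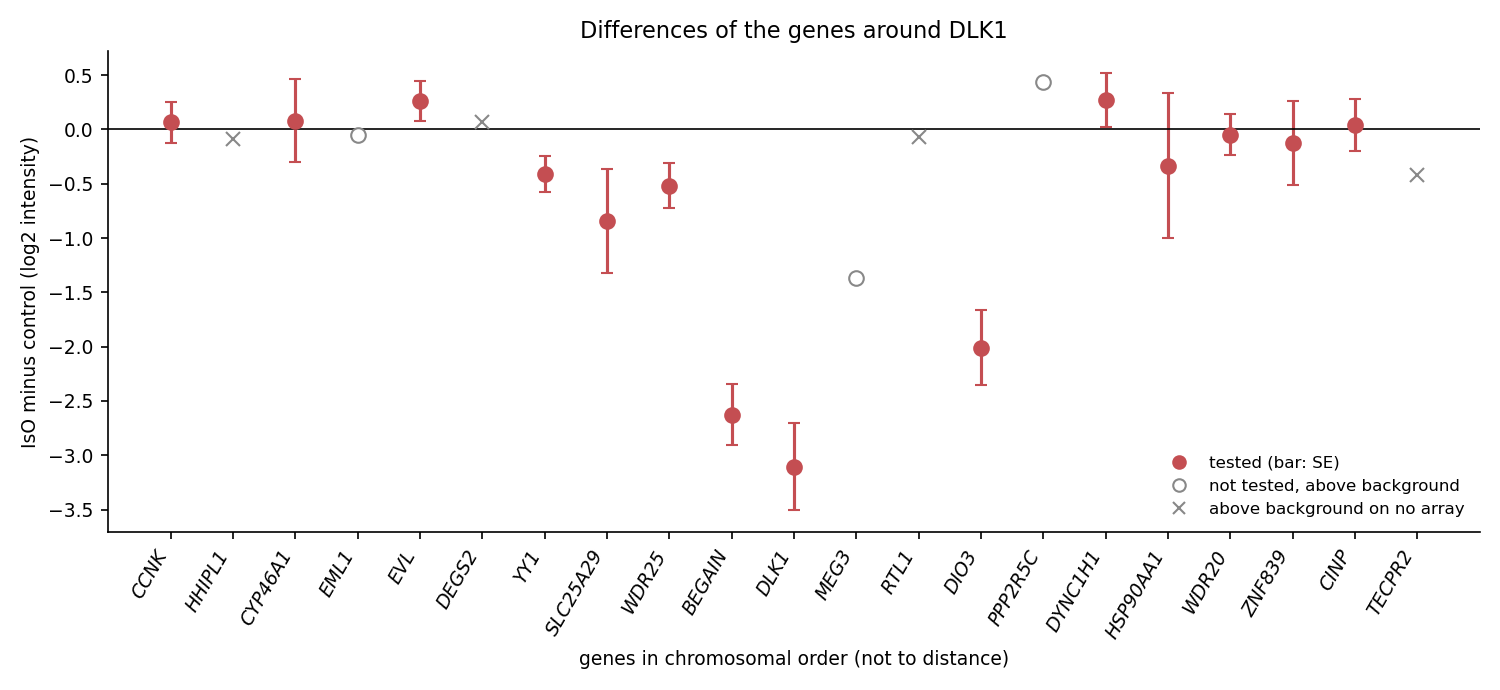
Difference in normalised log2 intensity (IsO minus control, 3 arrays each) for DLK1 and 10 genes on each side, in chromosomal order and not to distance; filled points were tested and carry their SE, open points were above background but not tested, and crosses were above background on no array. DLK1 at -3.11, BEGAIN at -2.62, DIO3 at -2.01 and MEG3 at -1.37 lie below the rest, and RTL1, between MEG3 and DIO3, was not above background.

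H19, a maternally expressed long non-coding RNA paired with IGF2, was the member with groups apart in the other direction. Its intensity was 119, 132 and 117 on control arrays 1, 2 and 3, and 197, 180 and 189 on IsO arrays 1, 2 and 3. All IsO arrays were detected and no control array was, so the row was tested only through the group in which it is high. The level was at least 1.32-fold higher in IsO-like cells, from 5.09 ± 0.08 to 6.21 ± 0.02 (SD, n = 3, log2). The measured difference of 1.12 fell to 0.57 without background correction and to 0.04 with the background from all rows. IGF2, the growth factor made from the opposite allele, was above background on no array. INS and IGF2AS were each above background on 2 IsO arrays and on no control array.

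PEG10, derived from a retrotransposon and required for the placenta in mice, read 229, 179 and 168 on control arrays 1, 2 and 3, and 572, 264 and 220 on IsO arrays 1, 2 and 3. Within each number the IsO array was higher, by 1.46, 1.30 and 0.77 on the log2 scale for numbers 1, 2 and 3. IsO array 3 was nevertheless below control array 1 after normalisation, so the groups overlapped, with a difference of 1.18 ± 0.48 (SE). It was 0.72 without IsO array 1, 0.65 when background was left uncorrected and 0.08 when all rows set the background. Its neighbour SGCE, which encodes epsilon-sarcoglycan, differed by 0.19 ± 0.68 (SE, adjusted p = 0.991, limma). TFPI2, a protease inhibitor at the same locus, read 138, 145 and 148 on control arrays 1, 2 and 3, and 216, 253 and 241 on IsO arrays 1, 2 and 3. It was detected on no control array, so the row was tested only through the IsO group, in which it is high. The level was at least 2.16-fold higher in IsO-like cells, with an adjusted p of 0.0672 (limma). The replicate block lowered that p to 0.0256, and it was 0.0243 without the arrays numbered 1. The difference of 1.46 became 0.68 when background was left uncorrected and 0.06 when all rows set the background. PPP1R9A and CALCR, also at this locus, were above background on no array.

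PLAGL1, a zinc-finger transcription factor, read 283, 343 and 319 on control arrays 1, 2 and 3, and 413, 461 and 569 on IsO arrays 1, 2 and 3. The raw groups were apart, but after normalisation IsO array 1 (7.81) lay below control array 2 (7.91), and the difference was 0.69 ± 0.31 (SE, log2), or 0.10 with the background from all rows. CDKN1C, the cyclin-dependent kinase inhibitor p57, read 503, 751 and 748 on control arrays 1, 2 and 3, and 896, 762 and 968 on IsO arrays 1, 2 and 3. It was higher on the IsO array of each number, yet the groups overlapped after normalisation, with a difference of 0.39 ± 0.24 (SE, log2), or 0.12 with the background from all rows and 0.18 without control array 1. In its cluster, KCNQ1OT1, the long RNA that silences the locus on the paternal copy, differed by -0.14 (adjusted p = 0.938), OSBPL5 by 0.18 (adjusted p = 0.945) and SLC22A18 by 0.17 (adjusted p = 0.972). KCNQ1, KCNQ1DN and PHLDA2 were above background on no array, nor was HYMAI, the non-coding partner of PLAGL1.

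NNAT and NDN, both linked to neurons, differed little between the groups. NNAT, which encodes a small membrane protein of the developing brain, read 16151, 23025 and 24006 on control arrays 1, 2 and 3, and 20024, 17636 and 21604 on IsO arrays 1, 2 and 3. The groups overlapped, with a difference of -0.15 ± 0.19 (SE, log2). NDN encodes necdin, a growth suppressor of neurons, and read 9289, 13777 and 13419 on control arrays 1, 2 and 3, and 10016, 10516 and 12425 on IsO arrays 1, 2 and 3. It also overlapped, with a difference of -0.18 ± 0.19 (SE, log2). Each IsO value of both genes lay within the span of the control values, before normalisation.

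The other genes of the Prader-Willi region, to which NDN belongs, were close between groups as well. MAGEL2, of the same protein family as necdin, differed by -0.39 (adjusted p = 0.633), SNRPN by 0.02 (adjusted p = 0.995) and SNURF by 0.00 (adjusted p = 0.999). UBE3A, the ubiquitin ligase of the Angelman syndrome, differed by 0.39 (adjusted p = 0.969) and ATP10A by 0.05 (adjusted p = 0.992). MKRN3 was above background on no array and IPW on 1 IsO array. BLCAP, the gene within which NNAT lies, differed by 0.05 (adjusted p = 0.994).

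MEST, an enzyme of the alpha/beta-hydrolase fold, lay close to background. It read 173, 181 and 163 on control arrays 1, 2 and 3, and 201, 135 and 169 on IsO arrays 1, 2 and 3. The groups overlapped, with a difference of -0.30 ± 0.27 (SE, log2), and 1 IsO array was not above background. COPG2, which overlaps MEST, differed by -0.34 ± 0.97 (SE, adjusted p = 0.989), and MESTIT1, CPA4 and KLF14 were above background on no array. PEG3, a paternally expressed zinc-finger protein, read 119 to 137 on control arrays and 119 to 133 on IsO arrays. PEG3 was above background on none of the 6 arrays, as were its neighbours ZIM2 and MIMT1.

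Of the 10 genes, 8 were tested and 6 were above background on all 6 arrays. By the threshold used for all rows, 2 of the 8 (DLK1 and H19) fell among the 1.31% of tested rows that were called, which restates values that chose the set and is no test of it. DLK1, MEG3 and H19 had groups that did not overlap, 2 of them among the 8 tested, where 15.4% of tested rows were so separated. Nothing is read from these counts, since the same values chose the genes and H19 entered the tested rows only through the IsO arrays. The panel of values by array shows how far each gene's groups lay apart.

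**Figure D2:**
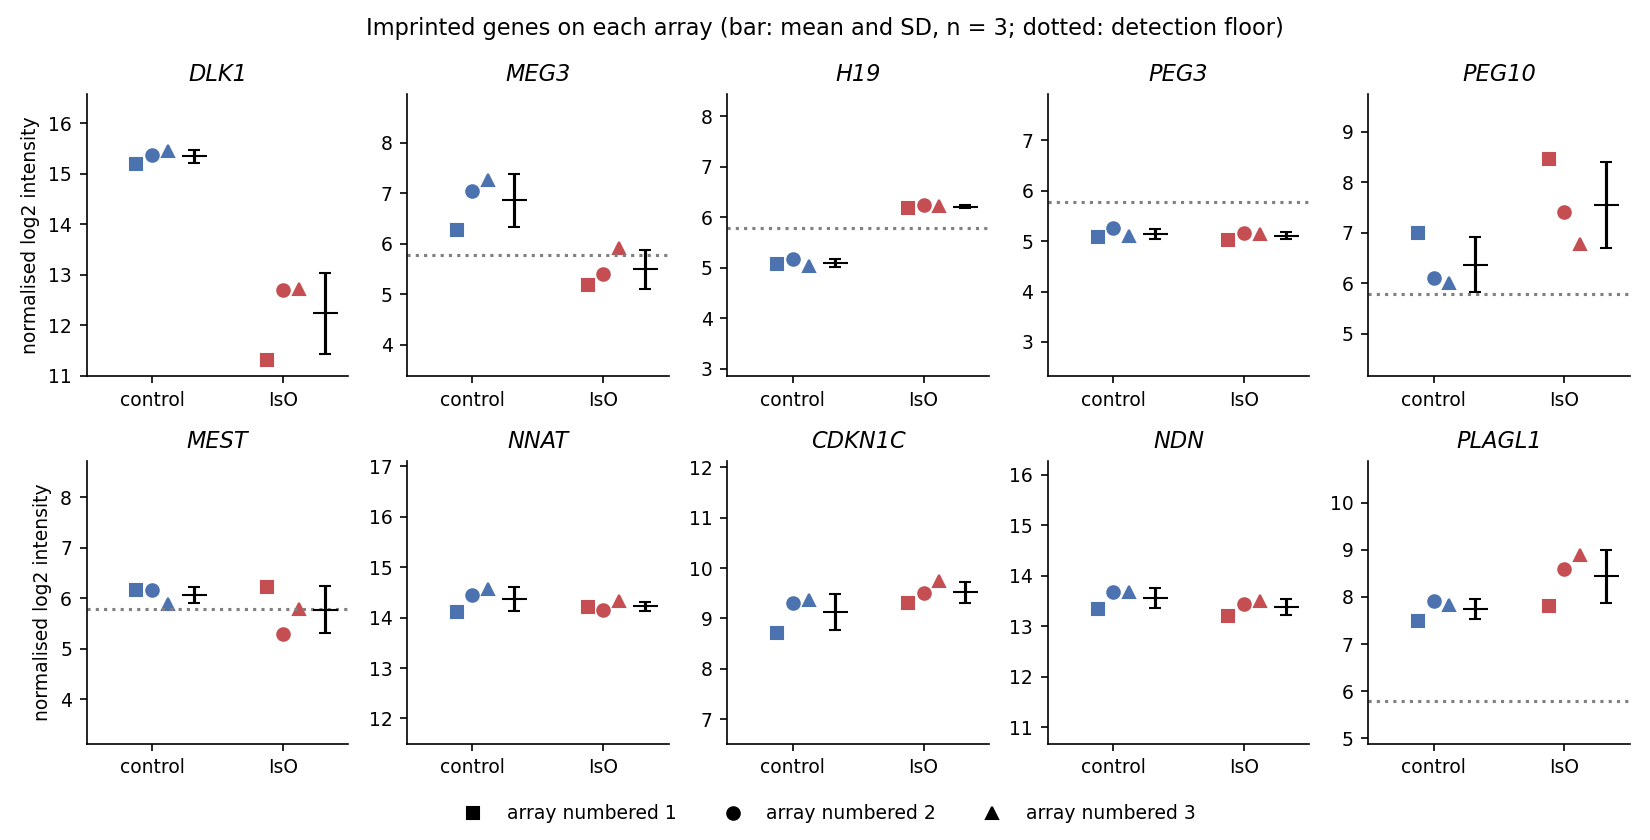
Normalised log2 intensity of the 10 imprinted genes on 3 control (blue) and 3 IsO (red) arrays, with squares, circles and triangles for the arrays numbered 1, 2 and 3, black bars for the mean and SD, and a dotted line at the mean detection floor where it falls in range. Each panel has its own scale. DLK1 (15.34 against 12.23) and MEG3 lie lower and H19 higher in IsO-like cells without overlap, and the groups of the other 7 genes overlap.

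A wider list of 47 other imprinted genes served as a comparison. Of these, 45 had a row, 28 were above background on any array and 21 were tested. None was called in the IsO comparison (limma), where 1.31% of all rows were. An unadjusted p below 0.05 was found for 2 of the 21, DIO3 and TFPI2, and for 1441 of all 14548 tested rows. With the replicate block, TFPI2 rose and DIO3 fell, where 5.78% of all tested rows were called, but TFPI2 was tested only through the IsO arrays. The median difference of the 21 was 0.05 on the log2 scale, against -0.01 over all tested rows. The 11 tested genes made from the paternal copy had a median of -0.07 and the 6 made from the maternal copy a median of 0.17. The 3 whose parental copy depends on the isoform had a median of 0.32, and 1 of unsettled copy differed by -0.34. These medians were not tested against each other.

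The rule for the set did not use differences between the arrays numbered 1 and the others, and these could be tested. Within groups, 4 of the 8 tested members differed between the arrays numbered 1 and those numbered 2 and 3, where 45.8% of all tested rows did. PEG10 was higher on the arrays numbered 1 by 1.16 ± 0.21 (SE, log2, adjusted p = 0.00875, limma). PLAGL1 was lower there by -0.66 ± 0.18 (adjusted p = 0.0277), CDKN1C by -0.46 ± 0.14 (adjusted p = 0.0409) and DLK1 by -0.81 ± 0.26 (adjusted p = 0.0481). For DLK1 most of this came from IsO array 1, at 11.30 against 12.69 and 12.71 on the other IsO arrays.

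MEST, NNAT, NDN and H19 did not pass this test, and H19 differed by -0.04 ± 0.12 (SE, log2, adjusted p = 0.820). H19 was detected on no control array, so among those arrays its contrast sets background against background. Among the genes beside members, COPG2 was higher on the arrays numbered 1 by 2.58 ± 0.19 (adjusted p = 0.00225), UBE3A by 1.70 ± 0.24 (adjusted p = 0.00479) and SGCE by 1.60 ± 0.34 (adjusted p = 0.0130). BLCAP was lower by -0.71 ± 0.15 (adjusted p = 0.0130). Of the 21 tested genes of the wider list, 3 were higher and 6 lower on the arrays numbered 1. Leaving these arrays out of the IsO comparison gave 1.03 for PEG10, 0.88 for PLAGL1, 0.28 for CDKN1C and 1.12 for H19 (log2), each in the same direction as before. The paired plot of both contrasts sets these differences side by side.

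**Figure D3:**
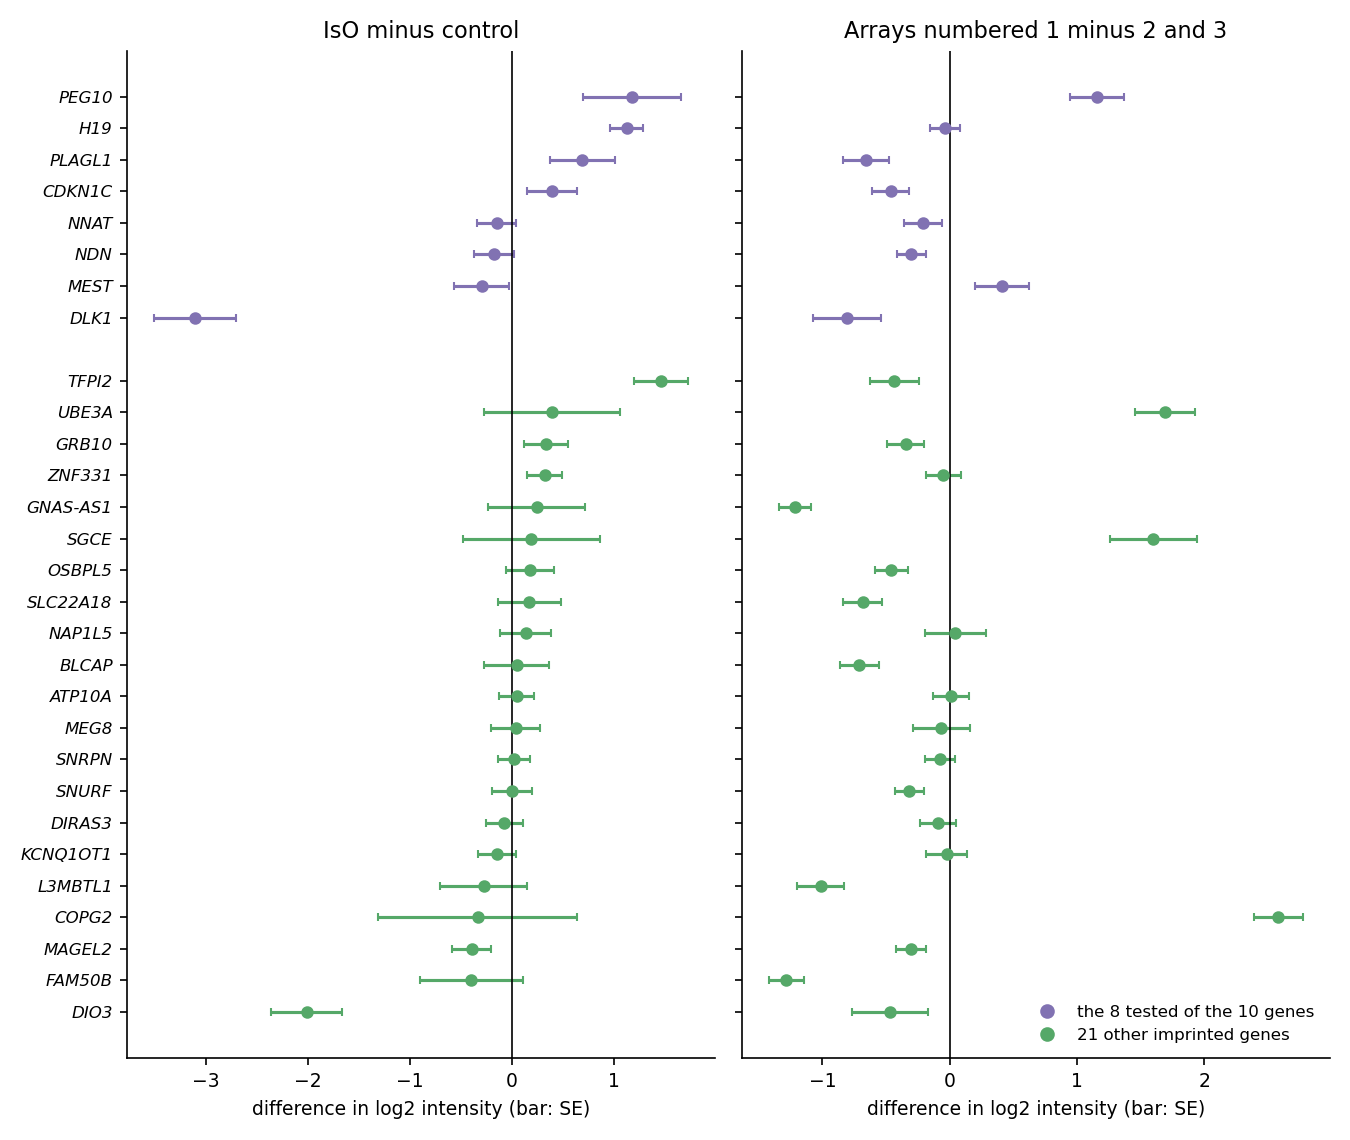
Differences in normalised log2 intensity with their SE for the 8 tested members (purple) and 21 other tested imprinted genes (green); the left panel is IsO minus control and the right panel is arrays numbered 1 minus those numbered 2 and 3, with the group as a term. DLK1 and DIO3 lie farthest to the left in the left panel, and COPG2, UBE3A and SGCE farthest to the right in the right panel.

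Factors that keep or remove methylation at imprinting control regions were read from a list of 23 genes. Of these, 12 were tested and none was called by limma. An unadjusted p below 0.05 was found for 1 of the 12 (YY1) and for 1441 of all 14548 tested rows. ZFP57, the zinc-finger protein that binds methylated control regions, differed by 0.38 (adjusted p = 0.875), and its partner TRIM28 by 0.28 (adjusted p = 0.842). DNMT1, the maintenance methyltransferase, differed by -0.08 (adjusted p = 0.981), UHRF1, which recruits it, by -0.47 (adjusted p = 0.697) and CTCF by 0.16 (adjusted p = 0.986).

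Relatives of the members that are not imprinted were also compared, 5 of 7 tested and none called. Of the 5, 2 had an unadjusted p below 0.05, where 1441 of all 14548 tested rows did. DLK2, the paralogue of DLK1, read 370, 508 and 538 on control arrays 1, 2 and 3, and 284, 316 and 364 on IsO arrays 1, 2 and 3. The IsO arrays lay lower, by -0.88 ± 0.34 (SE, log2), with an adjusted p of 0.442, and of 0.0307 with the replicate block. CDKN1B, the p27 relative of CDKN1C, differed by -0.48 ± 0.17 (SE, log2, adjusted p = 0.371). PLAGL2 differed by 0.00 (adjusted p = 0.999), LDOC1, a relative of PEG10, by 0.22 (adjusted p = 0.943) and NDNL2, of the necdin family, by -0.15 (adjusted p = 0.945). CDKN1A and MAGED1, rows of several probes, were above background on all arrays and were not tested.

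The 5 tested rows whose pattern over the 6 arrays was most like that of DLK1, by the root-mean-square difference after each row was centred on its mean, were SCUBE2 (0.176), CA4 (0.257), KCNK12 (0.277), C9ORF171 (0.290) and C18ORF51 (0.301, all log2). SCUBE2, a secreted protein that helps release lipid-modified Hedgehog, read 570, 840 and 642 on control arrays 1, 2 and 3, and 119, 190 and 219 on IsO arrays 1, 2 and 3. CA4, a membrane-bound carbonic anhydrase, read 6475, 8639 and 8764 on control arrays 1, 2 and 3, and 528, 1450 and 1357 on IsO arrays 1, 2 and 3. In both, IsO array 1 was the lowest, as it was for DLK1, and SCUBE2 was not detected on that array. The rows were picked for this likeness over the same arrays, so it is no separate result. None of the 5 was in a list of imprinted genes used here.

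Some markers of other cell types also differed between the groups. Among all 14548 tested rows, 1.31% were called and 1441 had an unadjusted p below 0.05. Among neural progenitor markers, 1 of 7 tested fell (SOX2, by -1.43, adjusted p = 0.0388, limma), and SOX1 was above background on 1 IsO array only. PAX6 differed by -2.83 (adjusted p = 0.0520) and MSI1 by 0.15 (adjusted p = 0.974). Their summed normalised intensity was 85346 to 112709 on control arrays and 34610 to 59795 on IsO arrays. Such sums are weighted towards bright rows: HES5 here (log2 mean 15.49 in control cells), TUBB3 among neuronal markers (13.83) and SOX10 among neural crest markers (12.69 on IsO array 1). Of 7 tested neuronal markers, 2 rose (NEFM and SYT4), and the sums were 13516 to 17267 and 22764 to 26887. SYT4 was above background on no control array, so its row was tested only through the IsO group, in which it is high. Of 6 tested neural crest markers, 1 rose (TWIST1), with sums of 1212 to 3196 and 3167 to 10513. None of 7 tested mesoderm and mesenchyme markers was called, while 4 had an unadjusted p below 0.05, with sums of 1312 to 1883 and 2398 to 4518, and T was above background on no array. For skeletal muscle, where DLK1 is also known, 2 of 6 markers, ACTA1 and MYF5, were above background on any array, and MYOD1, MYOG, DES and CHRNA1 on none. ACTA1 differed by -2.75 (adjusted p = 0.0521), with sums of 1302 to 3886 and 495 to 561 for the muscle markers. MYF5 was not tested. Of the 2 trophoblast and 2 endoderm markers tested, and the 3 pluripotency markers tested, none was called. With the replicate block, which called 5.78% of all tested rows, 4 progenitor markers and 1 muscle marker (ACTA1, adjusted p = 0.0197) fell. In the same fit 4 neuronal, 4 neural crest, 2 mesoderm and mesenchyme and 1 trophoblast marker (PGF, adjusted p = 0.0374) rose. The part of these cell types in the differences of DLK1, MEG3 and H19 was not tested.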

How the data were processed

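Biotin-labelled RNA from 3 control and 3 IsO samples was hybridised to Illumina bead arrays, and the submitters' processing notes name GenomeStudio 2011.1. The authors deposited a linear intensity without background subtraction and a detection p-value for each of 34692 rows and each array, per the file headers and the values. The authors' processed table holds log2 intensities of 34685 rows, equal within 5e-07 to quantile-normalised values without background correction (column median 7.23). It is an alternative here, with scale, centring and direction known.

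Background was corrected with normexp in limma 3.58.1 (R 4.3.3), from the detection p-values of 27312 rows read as 1 probe (whole multiples of 1/770 within 0.001), with 16 added to each value before quantile normalisation on the log2 scale. The 7380 rows read as several probes have detection p-values on another scale. The 5309 rows at 0 on all arrays could not be read either way and were taken as 1 probe. A row of several probes also counts as above background where it reaches the lowest detected signal of a 1-probe row. Rows whose detection p-value was under 0.05 for 3 or more arrays were tested with limma (lmFit, eBayes), without covariates, at a Benjamini-Hochberg adjusted p below 0.05. Deviations from the group means of same-numbered arrays correlated at 0.871, 0.397 and 0.656 for numbers 1, 2 and 3. By these deviations the arrays numbered 1 were each other's closest match. Control arrays 2 and 3 were closest to IsO array 3, IsO array 2 to control array 3 and IsO array 3 to control array 2. The labels name no pairs. The numbers were nevertheless taken as pairs, and a fit with the number as a block stands beside the results it changes. Its p-values rest on that pairing. The check of the steps on simulated data used fixed seeds.

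The members and the gene lists were chosen with earlier results of these data known. Named genes are the 10 members, other listed genes at their loci, called genes of the lists, the relatives, and the 5 rows most like DLK1. Further genes (those in order round DLK1, markers, and some methylation factors) were chosen after their values were seen. NPAP1 and MCTS2 of the wider list had no row. No genome build is given in the sources used here, and RefSeq was used for gene order and promoters only. The number of arrays limits the precision.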

Additional observations from a re-analysis of the deposited data

How the results depend on the processing

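Since their IsO and control values chose the 10 genes, their values under other settings describe the processing and give no support to a difference. Over the alternatives run, the log2 difference ranged from -3.45 to -2.64 for DLK1, from -1.66 to -0.05 for MEG3, from 0.04 to 1.17 for H19 and from 0.08 to 1.56 for PEG10. Of the 10 genes, 2 passed the threshold as reported, 3 with the replicate block, 1 without background correction, in the authors' table, with an offset of 50 or with detection required on all 6 arrays, 0 with the background from all rows, and 0 to 1 with each array left out in turn. Of the wider imprinted list, 0 were called as reported, 1 without background correction, in the authors' table, with an offset of 50 or over arrays numbered 2 and 3 only, 2 with median scaling or the replicate block, and 0 to 1 with an array left out. No maintenance factor was called in any. Over all rows, 190 calls became 179 without background correction or in the authors' table, 186 with an offset of 50 and 232 with median scaling. They became 101 with the background from all rows, 80 with detection on all 6 arrays and 841 with the replicate block. Over arrays numbered 2 and 3 only (chosen after seeing the data) there were 358, and 40 to 157 with an array left out. Between the arrays numbered 1 and the others, 6669 calls became 7053 without background correction, and members called went from 4 to 5. Beside the calls given for it in the text and here, the replicate block changed no other call among the members and the lists of imprinted genes and maintenance factors. Other than through fewer rows or arrays, the cause was not tested. The dim rows MEG3, H19 and BEGAIN had smaller differences both when background was left uncorrected and when all rows set it.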
